A study of Mus musculus with 6 samples.

Results

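Intermediate filament and lamin genes were described in mouse embryonic stem (ES) cells lacking Zscan10, against cells that kept the gene. Zscan10 encodes a zinc finger transcription factor of pluripotent cells. The 10 members were matched by gene symbol: the keratins Krt7, Krt8, Krt18 and Krt19, the type III filament gene Vim, the neural filament genes Nes, Nefl and Nefm, and the lamin genes Lmna and Lmnb1. Each was found at 1 locus among the 23244 loci listed for every library. The null group held 3 libraries of subcloned Zscan10-null ES cells, in which the knockout is constitutive. The control group held 3 libraries of ES cells with floxed, undeleted Zscan10, from an inducible Cre-loxP line, whose titles carry the suffix "-Tx", which the labels do not explain. Genotype, subcloning and whatever that suffix stands for cannot be told apart in these libraries. No label says if each library had its own culture, nor how many subclones there were, and the p-values then measure a spread that may be technical.

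Intermediate filaments are rope-like polymers of coiled-coil proteins. Keratins assemble only as pairs of a type I and a type II chain, and Krt18 with Krt8 forms the first such pair of the early embryo, in simple epithelia. Vimentin builds the filaments of mesenchymal cells and also of many cultured cells. Nestin marks neural progenitors, and the light (Nefl), medium (Nefm) and heavy (Nefh) neurofilament chains fill axons together with alpha-internexin (Ina). Lamins line the inner nuclear membrane: B-type lamins are present in nearly all cells, and A-type lamins from Lmna are low in pluripotent cells and become more abundant in differentiated ones.

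RNA levels are given as FPKM, fragments per kilobase of transcript scaled to library size, so they can be compared between genes of different length. Each library rested on about 7530000 to 8350000 fragments, a depth estimated from the steps between low values. Zscan10 itself had 5.13 ± 0.607 FPKM in null cells and 43.0 ± 1.14 FPKM in control cells (SD, n = 3 each), so every library matched its label. The ES cell genes Pou5f1, with 513 ± 28.2 FPKM in null and 538 ± 11.9 FPKM in control cells, Nanog and Sox2 were abundant in all 6 libraries and were not called. Of the 5 ES cell markers 2 were called lower: Zfp42 with 508 ± 34.9 FPKM in null and 596 ± 17.1 FPKM in control cells, and Esrrb with 147 ± 4.96 FPKM in null and 171 ± 5.15 FPKM in control cells (limma adjusted p 0.0188 and 0.00941). The Zfp42 call was lost without null library 3, control library 1 or control library 3 (adjusted p 0.0556 to 0.0681). Fold changes are null minus control of log2(FPKM + 1), so the change of a low gene is understated. They come with a standard error (SE) and limma's p adjusted by Benjamini-Hochberg over the 11480 loci that averaged 1 FPKM or more. A locus is called when that p is under 0.05.

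Of the 10 members, 8 reached the minimum level and were tested. Vim rose in null cells, Nefl and Krt19 fell, and Krt8, Krt18, Nes, Lmna and Lmnb1 did not pass the test. These 3 of 8 compare with 25.2% of all tested loci that were called, 12.8% higher and 12.4% lower, and with 8 members that share is near the background. In 5 of the 8 tested members the null and control libraries did not overlap (Vim, Krt19, Nefl, Lmna and Lmnb1), against 44.1% of all tested loci. Few loci changed as much as these 3: 2.55% of tested loci had an absolute log2 fold change as large as that of Vim, 1.63% as large as that of Krt19 and 0.453% as large as that of Nefl. The median log2 fold change of the 8 members was -0.03, beside -0.003 over all tested loci.

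**Figure D1:**
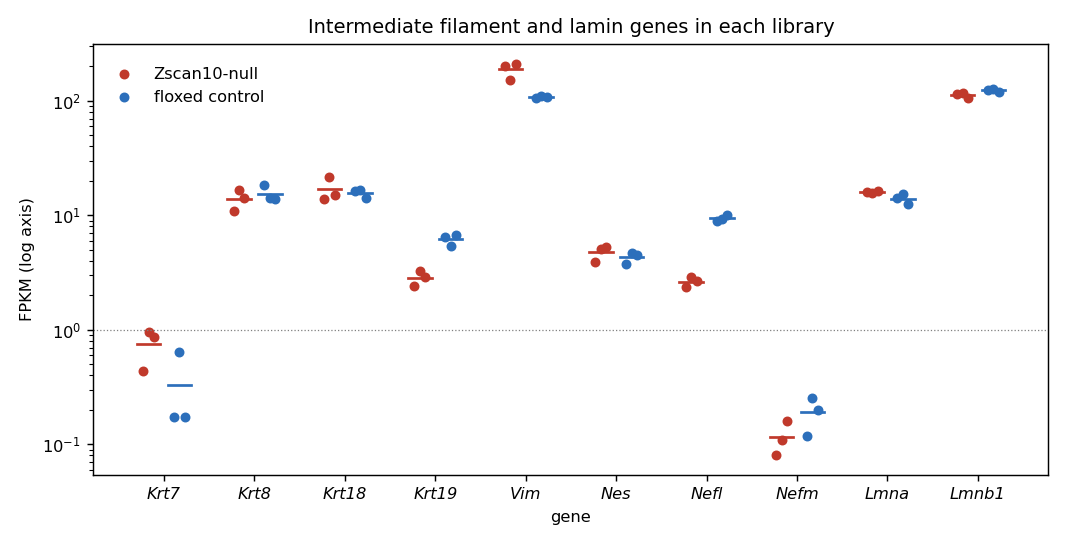
FPKM (log axis) of each of the 10 members in every library, null libraries left of control libraries in each pair; points are single libraries and horizontal bars are group means (n = 3 each). The groups separate upward for Vim (189 FPKM in null and 108 FPKM in control cells) and downward for Nefl (2.64 and 9.42 FPKM) and Krt19 (2.85 and 6.21 FPKM), while Krt8, Krt18 and Nes overlap.

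Vim, the mesenchymal filament gene, was the most abundant member in null cells. It had 203, 151 and 212 FPKM in null libraries 1 to 3, against 105, 110 and 109 FPKM in control libraries 1 to 3. Every null library lay above every control library, and null library 2 was the lowest of its group. The group means were 189 ± 33.0 FPKM in null and 108 ± 2.31 FPKM in control cells, a ratio of 1.75. The log2 fold change was 0.78 (SE 0.12, 95% interval 0.51 to 1.06, adjusted p = 0.00387). The underlying fragments were 2725, 2243 and 2876 in null libraries and 1432, 1625 and 1473 in control libraries, so the difference did not rest on low counts.

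The order of levels differed between the groups. In null cells the members ran Vim, Lmnb1, Krt18, Lmna, Krt8, Nes, Krt19, Nefl, Krt7 and Nefm from high to low, and in control cells Lmnb1, Vim, Krt18, Krt8, Lmna, Nefl, Krt19, Nes, Krt7 and Nefm. The libraries of neighbours in this order overlapped for Krt18 and Lmna, Lmna and Krt8, and Krt19 and Nefl in null cells, and for Krt18 and Krt8, Krt8 and Lmna, and Krt7 and Nefm in control cells. Vim made up 45.2 to 56.5% of the summed FPKM of the 10 members in null libraries and 35.4 to 37.5% in control libraries. Lmnb1 made up 28.2 to 34.9% in null and 41.1 to 41.9% in control libraries. These shares and the sum include the rise of Vim. Lmnb1 itself had 113 FPKM in null and 124 FPKM in control cells and was not called. The sum itself was 359 ± 22.2 FPKM in null and 297 ± 6.25 FPKM in control cells, and the groups did not overlap (exact 2-sided permutation p = 0.1, the smallest that 3 against 3 can give).

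In bulk RNA, a change in the share of cells that express a gene cannot be told apart from a change of RNA per cell. Genes of other cells that carry vimentin were therefore read beside it. Of 10 fibroblast markers, 3 were tested: Thy1 was called higher, and the smooth muscle actin gene Acta2 and Tagln were called lower. Their calls were not firm: Thy1 was lost without any 1 of the null libraries (adjusted p 0.051 to 0.0607), Acta2 without null library 2, control library 1 or control library 3 (0.0549 to 0.102), and Tagln without null library 1 or 3 or any 1 of the control libraries (0.0835 to 0.127). The summed level of the fibroblast list was 7.74 to 13.7 FPKM in null and 15.6 to 19.0 FPKM in control libraries. The collagen genes Col1a1 (0.0861 FPKM in null and 0.738 FPKM in control cells) and Col1a2 (0.0776 and 1.13 FPKM) did not reach the minimum level; with no minimum both were lower in null cells (limma adjusted p 0.00267 and 0.00149). Fap was at 0 in all 6 libraries. The part of fibroblast-like cells in the Vim values was not tested.

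Other mesenchymal genes went in both directions. Of 7 such genes, 5 were tested, 1 was called higher and 2 lower. Zeb1, a repressor of epithelial genes, had 4.86 FPKM in null and 3.9 FPKM in control cells, a call lost without null library 1 or 3 or any 1 of the control libraries (adjusted p 0.0769 to 0.1). Fibronectin (Fn1) fell to 39.4 FPKM in null cells, against 53.1 FPKM in control cells, a call lost without control library 2 (adjusted p = 0.0512). N-cadherin (Cdh2) had 1.57 FPKM in null and 2.39 FPKM in control cells, and its call was lost without any library other than null library 2 (adjusted p 0.0577 to 0.0987). The list summed to 44.4 to 55.6 FPKM in null and 61.1 to 65.1 FPKM in control libraries, mostly from Fn1. Of the 6 tested loci whose start lay within 500 kb of Vim, 1 was called: Cubn, an endocytic receptor gene, fell to 0.609 ± 0.27 FPKM in null cells, against 1.68 ± 0.308 FPKM in control cells (log2 fold change -0.74, SE 0.15, limma adjusted p = 0.0124). Cubn reached the minimum level only through the control group, which favours such a call.

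The promoter windows of Vim, the member that rose, and of the keratin partners Krt8 and Krt18, which did not pass the test, are shown 5′ to 3′ on the strand of the gene, from 250 bases before to 50 after the annotated start (RefSeq, GRCm38.p6, the assembly also called mm10). They lie at chr2:13574061-13574360 (plus strand) for Vim, chr15:102004293-102004592 (minus strand) for Krt8 and chr15:102027966-102028265 (plus strand) for Krt18. Capitals mark 3 letter runs searched on either strand: TATAAA of the TATA box, CCAAT of the CCAAT box and GGGCGG of the GC box.
Vim: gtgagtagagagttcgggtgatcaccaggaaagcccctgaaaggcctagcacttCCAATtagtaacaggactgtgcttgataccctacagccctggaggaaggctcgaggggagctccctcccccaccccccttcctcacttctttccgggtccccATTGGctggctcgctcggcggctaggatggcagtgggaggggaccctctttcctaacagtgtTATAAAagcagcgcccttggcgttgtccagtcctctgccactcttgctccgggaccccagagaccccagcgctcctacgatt
Krt8: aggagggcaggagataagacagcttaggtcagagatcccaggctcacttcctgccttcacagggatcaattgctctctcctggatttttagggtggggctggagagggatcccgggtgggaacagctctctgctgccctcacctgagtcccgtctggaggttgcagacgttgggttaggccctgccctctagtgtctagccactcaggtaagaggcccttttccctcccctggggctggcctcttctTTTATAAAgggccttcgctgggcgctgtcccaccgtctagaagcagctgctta
Krt18: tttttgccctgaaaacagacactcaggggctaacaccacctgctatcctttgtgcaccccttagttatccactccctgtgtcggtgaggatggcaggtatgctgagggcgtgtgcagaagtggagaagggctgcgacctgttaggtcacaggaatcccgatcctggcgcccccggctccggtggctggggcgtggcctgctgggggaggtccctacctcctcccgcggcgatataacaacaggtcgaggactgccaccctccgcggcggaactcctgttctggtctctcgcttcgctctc
The Vim window held TATAAA with its first base at -32 from the start, and CCAAT at -196 on the strand of the gene and at -94 on the other strand. The Krt8 window held TATAAA at -1, overlapping a copy on the other strand at -3, and the Krt18 window held none of the 3 motifs. For scale, 13.6% of the 32851 RefSeq promoter windows of this length hold TATAAA on either strand, 37.4% hold CCAAT and 35.7% hold GGGCGG. A window was found for 6 of the 10 members (Krt7, Krt8, Krt18, Vim, Nes and Lmna).

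The simple-epithelial pair stayed near its control level. Krt18, the type I partner, had 13.8, 21.8 and 15.1 FPKM in null libraries and 16.3, 16.6 and 14.1 FPKM in control libraries. The control values lay inside the null range, and null library 2 was the highest of all 6. The log2 fold change was 0.08 (SE 0.15, 95% interval -0.28 to 0.44, limma adjusted p = 0.73), and its sign turned to -0.11 without null library 2. Krt8, the type II partner, had 10.9, 16.5 and 14.2 FPKM in null libraries and 18.4, 14.2 and 13.9 FPKM in control libraries, again overlapping (log2 fold change -0.15, SE 0.15, 95% interval -0.52 to 0.21, adjusted p = 0.497). Null library 2 was also the highest null library for Krt8. Some of the Krt8 signal is uncertain. Of the 50-base stretches of its longest coding transcript, 29.7% also occur, read on either strand, in transcripts of other annotated loci. The processed copy Krt8-ps is among these loci.

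Within a library the ratio of Krt8 to Krt18 was 0.79, 0.759 and 0.94 in null cells and 1.13, 0.854 and 0.986 in control cells. The groups overlapped, with a mean log2 difference of -0.25 (exact 2-sided permutation p = 0.2). The ratio of Vim to Krt8 was 18.6, 9.14 and 14.9 in null libraries and 5.74, 7.75 and 7.82 in control libraries. These groups did not overlap, with a mean log2 difference of 0.96 and the smallest exact permutation p this design allows, 0.1. Vim alone already separated the groups, so this ratio includes its rise and is not a separate result.

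Krt19, a type I keratin gene of simple and ductal epithelia that is also used as a trophectoderm marker, fell. It had 2.39, 3.29 and 2.88 FPKM in null libraries and 6.47, 5.37 and 6.80 FPKM in control libraries. All null libraries lay below all control libraries. The group means were 2.85 ± 0.447 and 6.21 ± 0.749 FPKM, a ratio of 0.459 (log2 fold change -0.91, SE 0.12, 95% interval -1.18 to -0.63, limma adjusted p = 0.00228). The underlying fragments were few, 23, 35 and 28 in null libraries and 63, 57 and 66 in control libraries.

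Krt7, another simple-epithelial type II keratin gene, was near the limit of detection. It had 0.440, 0.953 and 0.869 FPKM in null libraries and 0.174, 0.638 and 0.174 FPKM in control libraries. Those values are 5, 12 and 10 fragments in null and 2, 8 and 2 fragments in control libraries, and the groups overlapped. Krt7 did not reach the minimum level; with no minimum its log2 fold change was 0.41 (limma adjusted p = 0.17), in a fit that called 13.9% of 18476 loci.

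Among 19 other keratin genes, 3 were tested, 2 of them were called, both lower in null cells. Krt17, a type I keratin gene of basal and stressed epithelia, had 2.79, 3.28 and 3.03 FPKM in null libraries and 8.36, 6.41 and 5.72 FPKM in control libraries, with no overlap. Its log2 fold change was -0.94 (SE 0.13, limma adjusted p = 0.00266), and 3.99% of its 50-base stretches also occur in 4 other genes, the related Krt14 foremost. Krt42, a type I keratin gene, had 10.1, 8.75 and 9.84 FPKM in null libraries and 16.9, 17.1 and 14.6 FPKM in control libraries (log2 fold change -0.70, SE 0.08, adjusted p = 0.00146). Krt10, a keratin gene of differentiated epidermis, had 1.15 FPKM in null and 1.16 FPKM in control cells and was not called (adjusted p = 0.992).

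Krt17 and Krt42 are neighbours, and Krt19 lies in the same keratin cluster with Krt9, Krt14 and Krt16 between. Krt19 is at chr11:100140810-100145926, and the start of Krt17 lay 115 kb and that of Krt42 122 kb from it. Of 27 keratin loci on chromosome 11, 4 were tested (Krt19, Krt17, Krt42 and Krt10) and 12 were at 0 in all libraries. Within 500 kb of Krt19, 14 other loci were tested, of which 8 were called lower and 0 higher. The same region holds Hap1, the gene of a neuronal trafficking protein, 207 kb away. Hap1 fell to 5.97 ± 0.836 FPKM in null cells, against 12.7 ± 0.48 FPKM in control cells (log2 fold change -0.98, SE 0.09, limma adjusted p = 0.000808). The other neighbours called had log2 fold changes closer to 0 than these 4 genes, as the plot by distance shows. Among those others, Leprel4 lost its call in 9 of 12 alternative fits (limma adjusted p up to 0.122). Chromosome 11 as a whole was shifted: of 939 tested loci 27.7% were called lower and 5.96% higher, and their median log2 fold change was -0.12. The part of that shift in the keratin changes was not tested.

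**Figure D2:**
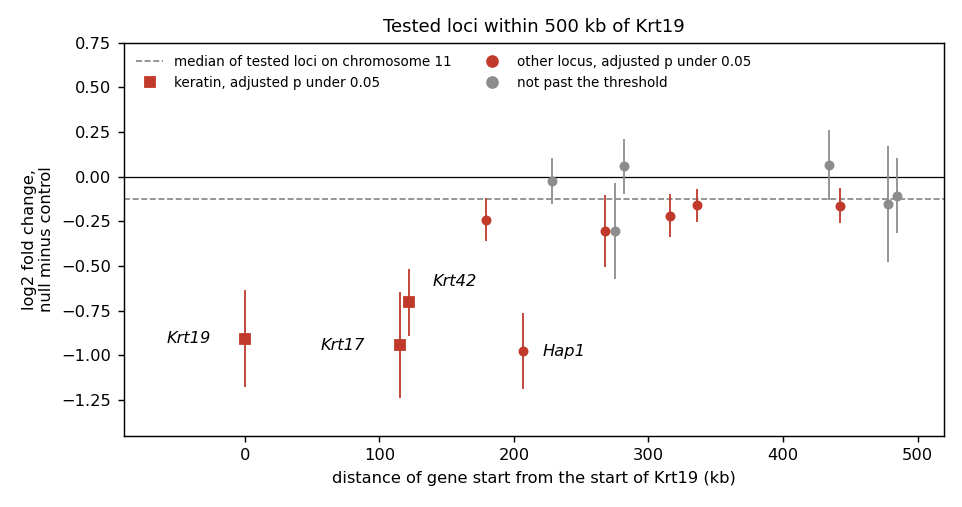
Log2 fold change, null minus control, with its 95% limma interval, of each tested locus within 500 kb of the start of Krt19, against distance in kb; squares are keratin genes, red marks an adjusted p under 0.05, and the dashed line is the median of tested chromosome 11 loci. Krt19 (-0.91), Krt17 (-0.94), Krt42 (-0.70) and Hap1 (-0.98) lie well below the dashed line at -0.12, and the remaining loci lie nearer to it.

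The promoter window of Krt42, which fell together with its neighbours, lies at chr11:100269902-100270201 on the minus strand and is shown as above.
Krt42: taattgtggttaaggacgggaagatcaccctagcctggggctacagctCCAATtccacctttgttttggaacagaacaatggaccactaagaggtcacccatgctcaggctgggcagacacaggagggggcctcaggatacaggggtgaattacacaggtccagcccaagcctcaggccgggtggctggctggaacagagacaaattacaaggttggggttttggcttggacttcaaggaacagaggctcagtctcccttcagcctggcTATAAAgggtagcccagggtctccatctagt
It held CCAAT at -202 and TATAAA at 19, the second of these after the annotated start. The Vim window held both letter runs as well.

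Desmosomes anchor keratin filaments at the cell membrane, and the plakins link filaments to these and other structures. Of 13 such genes 10 were tested, of which 2 were called lower and 0 higher. Their median log2 fold change was -0.12. The plakophilin gene Pkp2 had 21.5 ± 1.31 FPKM in null and 28.7 ± 0.666 FPKM in control cells (log2 fold change -0.40, SE 0.05, limma adjusted p = 0.00261). Desmoplakin (Dsp), which binds the keratin tail, had 2.23 ± 0.504 FPKM in null and 3.72 ± 0.295 FPKM in control cells (-0.56, SE 0.13, adjusted p = 0.0181). The Dsp call was lost without null library 3, control library 1 or control library 2 (adjusted p 0.0515 to 0.0649). Of 3 genes for proteins that organise keratin filaments, 3 were tested and 0 called by limma. Among them Fam83h, whose protein recruits a kinase to keratin filaments, had 5.83 FPKM in null and 7.0 FPKM in control cells (log2 fold change -0.23, unadjusted p = 0.0156 and adjusted p = 0.0575 by limma), and passed only in the fit without trend (adjusted p = 0.0474). It was the 1 gene of the 3 with an unadjusted p under 0.05.

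Epithelial and trophectoderm genes were read beside the keratins. All 6 epithelial genes were tested, of which 2 were called lower and 0 higher. The adhesion molecule gene Epcam had 50.4 FPKM in null and 63.5 FPKM in control cells, a call lost without control library 1 or 2 (adjusted p 0.0601 and 0.0513). The splicing factor gene Esrp1 had 6.86 FPKM in null and 9.83 FPKM in control cells, a call lost without null library 3 or any 1 of the control libraries (adjusted p 0.0617 to 0.0987). E-cadherin (Cdh1) had 90.4 FPKM in null and 92.4 FPKM in control cells (limma adjusted p = 0.694). The list summed to 142.8 to 175.6 FPKM in null and 179.4 to 183.8 FPKM in control libraries.

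The trophectoderm list went the other way from Krt19. Of its 7 genes 4 were tested and 4 were called higher: Eomes with 4.25 FPKM in null and 1.37 FPKM in control cells, Hand1 with 1.79 and 0.577 FPKM, Tfap2c with 25.7 and 18.0 FPKM, and Esx1 with 1.58 and 0.459 FPKM. Hand1 and Esx1 averaged under 1 FPKM in control cells and reached the minimum only through the null group, so their calls are no support for the count. The Esx1 call was lost without null library 1 or 2 or control library 1 or 3 (adjusted p 0.065 to 0.0894). The list summed to 32.8 to 35.1 FPKM in null and 20.6 to 20.9 FPKM in control libraries, and Tfap2c alone made up most of both sums. Cdx2, Gata3 and Elf5 did not reach the minimum level, and their groups overlapped. Of 7 primitive endoderm markers 2 were tested and 0 called by limma. Of these, 1 had an unadjusted p under 0.05: Dab2, with 1.18 FPKM in null and 2.10 FPKM in control cells (unadjusted p = 0.0133, adjusted p = 0.0518), called without null library 1 (adjusted p = 0.0198). The list summed to 3.70 to 5.26 FPKM in null and 5.35 to 6.77 FPKM in control libraries. The part of these lists in the keratin values was not tested.

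Nefl, the neurofilament light chain gene and the core of the neurofilament polymer, had the largest change among the members. It had 2.37, 2.87 and 2.67 FPKM in null libraries and 9.01, 9.25 and 9.98 FPKM in control libraries. No null library came near a control library. The group means were 2.64 ± 0.252 and 9.42 ± 0.508 FPKM, a ratio of 0.280 (log2 fold change -1.52, SE 0.08, 95% interval -1.71 to -1.33, limma adjusted p = 8.11e-05). The smallest whole numbers of fragments that give these values are 35, 47 and 40 in null and 135, 151 and 149 in control libraries.

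Nefm, the medium chain gene next to Nefl, was barely detected. It had 0.0803, 0.109 and 0.158 FPKM in null libraries and 0.119, 0.254 and 0.199 FPKM in control libraries, which are 2, 3 and 4 fragments in null and 3, 7 and 5 in control libraries. The groups overlapped and Nefm did not reach the minimum level; with no minimum the log2 fold change was -0.09 (limma adjusted p = 0.355). The ratio of Nefm to Nefl was 0.0339, 0.0379 and 0.0593 in null libraries and 0.0132, 0.0275 and 0.0199 in control libraries, a mean log2 difference of 1.13 (exact 2-sided permutation p = 0.1, the smallest possible), on few Nefm fragments. Nefl alone already separated the groups, so this ratio includes its fall and is not a separate result. The RefSeq positions of the 2 genes, chr14:68083863-68089095 for Nefl and chr14:68119545-68125004 for Nefm, do not overlap. In the GENCODE M21 annotation some of their transcripts do overlap, on opposite strands. Of the 50-base stretches of the longest coding transcript of Nefl there, 31.8% are shared with Nefm. Of the stretches of Nefm 29.3% are shared with 5 other genes, Nefl foremost. No source used here says whether the authors' counting used strand.

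The other neurofilament genes were lower too. Of 8 other type III and IV filament genes 4 were tested, of which 2 were called lower and 0 higher. Nefh, the heavy chain gene, had 6.73, 6.62 and 6.77 FPKM in null libraries and 11.3, 11.3 and 11.9 FPKM in control libraries, with no overlap (log2 fold change -0.70, SE 0.05, limma adjusted p = 0.000425). Nefh is also on chromosome 11, whereas Nefl and Nefm are on chromosome 14, where 16.6% of tested loci were called lower and 12.1% higher. Ina, the alpha-internexin gene, had 16.3 ± 1.19 FPKM in null and 22.1 ± 1.21 FPKM in control cells (-0.42, SE 0.07, adjusted p = 0.00489), and 12.8% of its 50-base stretches are shared with Nt5c2 on the opposite strand. Desmin (Des), the muscle filament gene, had 5.76 ± 0.59 FPKM in null and 4.42 ± 0.573 FPKM in control cells (adjusted p = 0.0602). Peripherin (Prph), of peripheral neurons, had 3.88 FPKM in null and 3.74 FPKM in control cells (adjusted p = 0.819).

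Nes, the neural progenitor filament gene, did not follow them. It had 3.89, 5.10 and 5.26 FPKM in null libraries and 3.78, 4.73 and 4.53 FPKM in control libraries, with overlapping groups (log2 fold change 0.10, SE 0.12, 95% interval -0.18 to 0.38, limma adjusted p = 0.564). The fragments behind it were 190, 276 and 260 in null and 187, 255 and 223 in control libraries. Its neighbour Crabp2, the gene of a retinoic acid binding protein, rose to 10.6 ± 2.23 FPKM in null cells, against 5.57 ± 1.02 FPKM in control cells (log2 fold change 0.81, SE 0.16, adjusted p = 0.0104). Within 500 kb of Nes, 22 loci were tested, of which 5 were called higher and 1 lower. The lower one, Etv3, lost its call in 10 of 13 alternative fits (limma adjusted p up to 0.124). Some of these 22 loci also lie within 500 kb of Lmna, among them Sema4a and Slc25a44, both called higher. Near Nefl and Nefm, 3 were tested and 1 was called: Dock5, a guanine nucleotide exchange factor gene, rose to 8.25 ± 0.269 FPKM in null cells, against 6.17 ± 0.242 FPKM in control cells (0.37, SE 0.06, adjusted p = 0.00566).

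**Figure D3:**
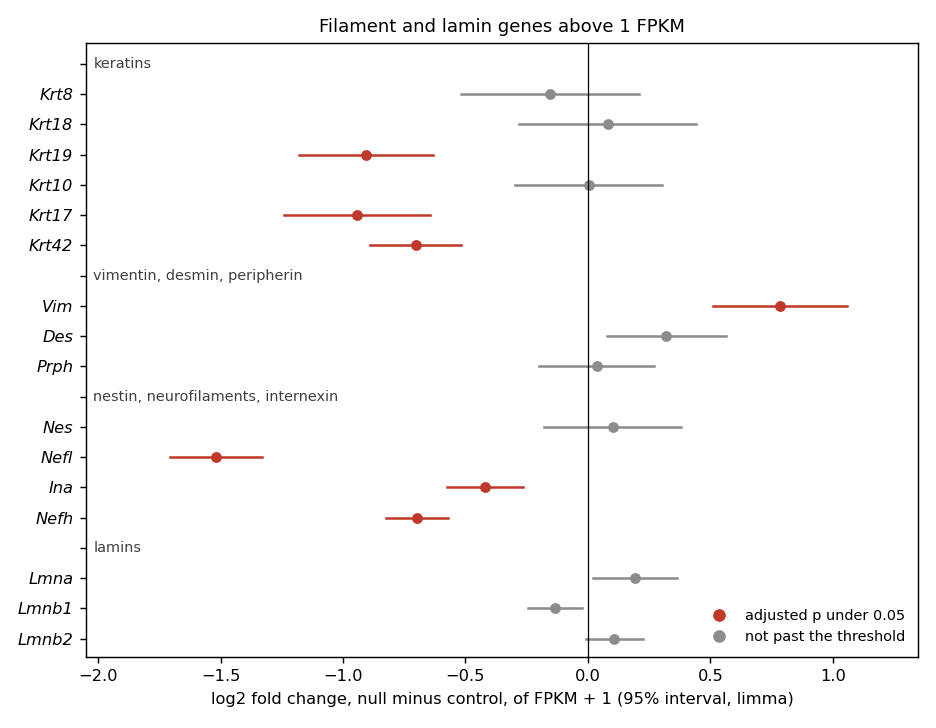
Log2 fold change, null minus control, of FPKM + 1 with its 95% limma interval for the tested members and other filament genes; red marks an adjusted p under 0.05. Vim (0.78) is the filament gene called higher, and Nefl (-1.52), Krt17 (-0.94), Krt19 (-0.91), Krt42 (-0.70), Nefh (-0.70) and Ina (-0.42) are those called lower.

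Of 9 neural markers 6 were tested, of which 1 was called higher and 3 lower. Rest, the repressor of neuronal genes in other cells, rose to 142 ± 2.99 FPKM in null cells, against 124 ± 1.48 FPKM in control cells (log2 fold change 0.20, SE 0.03, limma adjusted p = 0.00535). The neuronal tubulin gene Tubb3 had 51.4 FPKM in null and 67.2 FPKM in control cells, a call lost without control library 1 or 2 (adjusted p 0.0715 and 0.0749). Pax6, a neural progenitor factor gene, had 7.85 FPKM in null and 9.96 FPKM in control cells, a call lost without null library 1 or 3 or control library 1 or 3 (adjusted p 0.0548 to 0.0784). Neurod1 had 1.07 FPKM in null and 1.87 FPKM in control cells, a call lost without null library 2 or any 1 of the control libraries (adjusted p 0.0525 to 0.0692). The other 8 markers summed to 57.6 to 66.2 FPKM in null and 76.9 to 85.5 FPKM in control libraries, without overlap, and with Rest added to 201.2 to 210.5 FPKM in null and 199.9 to 210.9 FPKM in control libraries. Tubb3 made up most of the sum of the 8 markers. The part of the neural markers in the neurofilament changes was not tested.

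The lamin genes moved little. Lmnb1, the B-type lamin gene, was the most abundant member in control cells. It had 115, 116 and 106 FPKM in null libraries and 124, 127 and 119 FPKM in control libraries, and the groups did not overlap. Its log2 fold change of -0.13 (SE 0.05, 95% interval -0.25 to -0.02) did not pass the test (limma adjusted p = 0.0784), but passed after quantile normalization (-0.21, adjusted p = 0.0249). Lmna, the gene of lamins A and C, had 15.9, 15.7 and 16.5 FPKM in null libraries and 14.1, 15.3 and 12.5 FPKM in control libraries, also without overlap (0.19, SE 0.07, 95% interval 0.02 to 0.36, adjusted p = 0.0965). The values of Lmna, listed with 3 transcripts, did not resolve into whole fragments.

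Each of the 2 lamin genes alone separated the groups, in opposite directions. Their ratio was therefore bound to separate the groups and is no further result. The ratio of Lmna to Lmnb1 was 0.138, 0.135 and 0.156 in null libraries and 0.113, 0.12 and 0.105 in control libraries, a mean log2 difference of 0.34 (exact 2-sided permutation p = 0.1, the smallest possible). All null libraries lay above all control libraries. The sum of both lamin genes was 129 ± 5.53 FPKM in null and 138 ± 5.16 FPKM in control cells (exact permutation p = 0.2). Lmnb2, the other B-type lamin gene, had 33.8 ± 1.52 FPKM in null and 31.3 ± 1.10 FPKM in control cells and was not called (log2 fold change 0.11, adjusted p = 0.155).

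**Figure D4:**
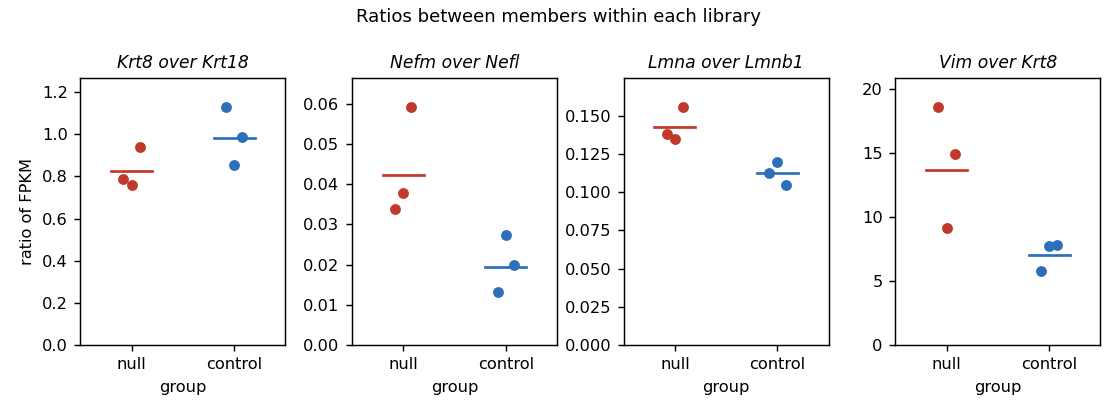
Ratio of FPKM between a pair of members within each library, on linear axes from 0, null libraries left of control libraries. Points are libraries and bars are geometric group means (n = 3 each). Null libraries lie above control libraries for Nefm over Nefl, Lmna over Lmnb1 and Vim over Krt8, and overlap them for Krt8 over Krt18.

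Lamins are tethered to the inner nuclear membrane and, through the SUN and nesprin proteins, to the cytoskeleton. Of 15 genes of this group (Lmnb2 included), 14 loci were tested, of which 3 were called higher and 1 lower. Syne3, the gene of the nesprin that binds plectin and so reaches the intermediate filaments, rose to 1.70 ± 0.159 FPKM in null cells, against 0.667 ± 0.047 FPKM in control cells (log2 fold change 0.70, SE 0.10, limma adjusted p = 0.00308). It reached the minimum level only through the null group, which favours such a call. Sun1, which spans the inner membrane, rose to 58.3 ± 2.11 FPKM in null cells, against 46.0 ± 2.33 FPKM in control cells (0.34, SE 0.05, adjusted p = 0.00392). Tor1aip2, a torsin cofactor gene, rose to 55.2 ± 1.64 FPKM in null cells, against 45.8 ± 0.718 FPKM in control cells (0.26, SE 0.04, adjusted p = 0.00373). Syne2, the gene of an actin-binding nesprin, had 2.92 ± 0.0754 FPKM in null and 3.87 ± 0.0896 FPKM in control cells (-0.31, SE 0.07, adjusted p = 0.0177). The Syne2 call was lost without control library 1 or 2 (adjusted p 0.0573 and 0.063) and with the replicate number as a block (adjusted p = 0.0521).

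Prelamin A and the B-type lamins are farnesylated and then trimmed. The list for these steps and for prelamin A binding held 6 genes, all of which were tested, and 0 were called by limma. At an unadjusted p under 0.05 there was 1, Narf, a gene named for binding prelamin A, with 5.58 FPKM in null and 6.84 FPKM in control cells (unadjusted p = 0.033, adjusted p = 0.0964). The farnesyltransferase subunit genes Fnta, with 82.7 FPKM in null and 79.6 FPKM in control cells, and Fntb, with 26.0 FPKM in null and 26.4 FPKM in control cells, had adjusted p of 0.309 and 0.824 by limma.

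**Figure D5:**
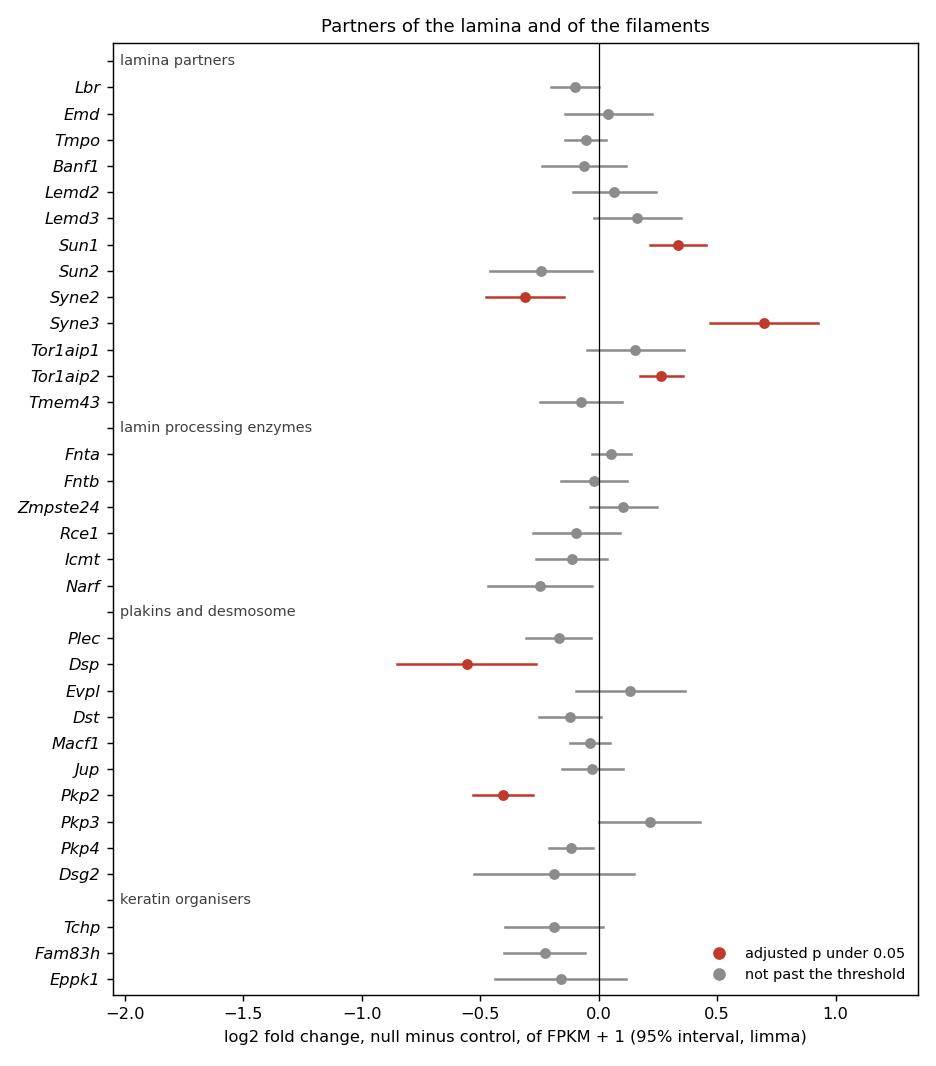
Log2 fold change, null minus control, of FPKM + 1 with its 95% limma interval for tested genes of the nuclear lamina, lamin processing, plakins and desmosomes, and keratin organisation; red marks an adjusted p under 0.05. Syne3 (0.70), Sun1 (0.34) and Tor1aip2 (0.26) were called higher and Syne2 (-0.31), Pkp2 (-0.40) and Dsp (-0.56) lower.

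The 64 other filament and partner genes together matched 65 loci, of which 40 were tested, 3 called higher and 7 lower; their median log2 fold change was -0.07. That is 25% called, beside 25.2% of all tested loci. Within 500 kb of any member 89 other loci were tested, of which 13 were called higher and 13 lower; their median was -0.04. That is 29.2%, again beside 25.2%. The 26 calls became 13 to 16 without null library 2, null library 3 or any 1 of the control libraries. On chromosome 15, 16 loci beside Krt8 and 19 beside Krt18 were tested, with medians of -0.07 and -0.06. The same 2 were called beside both, each higher. Of these, Rarg, the gene of a retinoic acid receptor, rose to 106 ± 1.94 FPKM in null cells, against 79.2 ± 2.02 FPKM in control cells (log2 fold change 0.41, SE 0.04, limma adjusted p = 0.000607). The other call there, Aaas, a nuclear pore protein gene (0.18, adjusted p = 0.0192), was lost without null library 3, control library 1 or control library 3 (adjusted p 0.0546 to 0.0701). Beside Krt7, 5 were tested, 1 called higher and 1 lower. The lower one, Grasp, a scaffold protein gene, fell to 13.3 ± 0.156 FPKM in null cells, against 17.6 ± 1.22 FPKM in control cells (-0.37, SE 0.06, adjusted p = 0.0051). Beside Lmna, 29 loci were tested, of which 4 were called higher and 2 lower. The upward calls had log2 fold changes of 0.22 to 0.40, and among them Sema4a and Ash1l were lost without any 1 library and Slc25a44 without any 1 except null library 1 (adjusted p 0.0508 to 0.113). Of the lower ones, Rab25, a trafficking gene of epithelia, fell to 2.15 ± 0.159 FPKM in null cells, against 3.62 ± 0.564 FPKM in control cells (-0.55, SE 0.11, adjusted p = 0.0121). Beside Lmnb1, 4 loci were tested, of which 3 were called higher and 0 lower. Among them Phax, an RNA export adaptor gene, rose to 49.9 ± 1.92 FPKM in null cells, against 42.7 ± 0.583 FPKM in control cells (0.22, SE 0.04, adjusted p = 0.00943). The other calls there were less firm. Gramd3 lost its call in 7 of 12 alternative fits (limma adjusted p up to 0.125). An unnamed locus had a limma adjusted p of 0.0491, and of 0.0907 with no minimum level.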

How the data were processed

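Total RNA of mouse ES cells depleted of ribosomal RNA was sequenced in 6 libraries, 3 null and 3 control. Trim Galore, FastQC, TopHat, Cuffdiff and the build mm10 are named, per the submitters' processing notes, without versions or roles. The deposited values were read as FPKM for 23244 loci per library, since Cuffdiff is named and the values step by locus; no file header states the unit, and no counts are used. Depth was estimated from the steps between low FPKM values of 879 loci, which gave whole fragments (within 0.05) for every member except Lmna. These cover counting only and were not used in the test.

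The 11480 loci averaging 1 FPKM or more over the 6 libraries were tested on log2(FPKM + 1) by limma's lmFit and eBayes with trend (limma 3.58.1, R 4.3.3), with Benjamini-Hochberg adjustment over all of them at 0.05. Ratios between members were compared by exact 2-sided permutation tests. Gene positions come from RefSeq GRCm38.p6, with 23096 loci placed by RefSeq transcript identifier or, failing that, by symbol. Transcript overlaps come from GENCODE M21. The members and gene lists were chosen with earlier results of these data known. Beside the members, the named genes are Zscan10 and the ES markers Pou5f1, Nanog and Sox2. From each list up to 6 called genes with the largest absolute log2 fold change could be named, or, with fewer than 2 called, the 2 with the highest mean. Up to 4 called neighbours per member followed the same rule, and the text takes a selection of these. Cdh1, Prph, Des, Krt10, Lmnb2, Col1a1, Col1a2, Fap, Narf, Cdx2, Gata3, Elf5, Krt9, Krt14 and Krt16 were named after their values were seen. Alternatives were another pseudocount, other minimum levels, median centring, quantile normalization, eBayes without trend, a replicate block, a narrower neighbour window and leaving out each library in turn.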

Additional observations from a re-analysis of the deposited data

How the results depend on the processing

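Vim, Krt19 and Nefl kept their direction and their call in every alternative that tested them: adjusted p ran from 0.000334 to 0.0197 for Vim, 0.00222 to 0.0137 for Krt19 and 7.55e-05 to 0.00211 for Nefl. With a minimum mean of 5 FPKM Krt19 was no longer tested, and 6 instead of 10 other filament and partner genes were called. The losses given above by library are not all of them for some genes. Over all alternatives that tested it, Tagln lost its call in 9 of 13 and Acta2 in 5 of 12. Zeb1 and Cdh2 each lost it in 7 of 12, Neurod1 in 5 of 12 and Sema4a in 8 of 12. Of 13 alternatives, Zfp42 and Aaas lost it in 4, Esrp1 and Pax6 in 5, Slc25a44 in 7 and Ash1l in 8. Leaving out 1 library at a time, between 1697 and 2903 loci were called (2894 with all), 8 to 12 other filament and partner genes, and 13 to 22 neighbours of members (26 with all). The 2 lowest counts of loci came without control library 2 (1697) and control library 1 (1741). The neighbours called were 13 within 200 kb. Signs near 0 turned for Krt18 without null library 2 (-0.1054; range without 1 library -0.1054 to 0.203), for Fnta with quantile normalization (-0.0009), and for Fntb with median centring (0.0006), without null library 3 (0.0017) and without control library 1 (0.0244; range without 1 library -0.0652 to 0.0244). Same-numbered libraries of the groups deviated from their group means with correlations of -0.002, 0.108 and 0.053. Differently numbered libraries had correlations of -0.222 to 0.163. Estimated depth, relative to control library 1, was highest in library 2 of both groups (1.093 in null and 1.089 in control cells). Whether the numbers pair the libraries cannot be told from so few values. With the replicate number as a block 2264 loci, the same 3 members, 9 other genes and 12 neighbours were called. Precision is limited by 3 libraries a group, and for Krt7, Nefm and Krt19 by few fragments.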
